A study of Rattus norvegicus with 8 samples.

Results

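The constitutive proteasome genes were followed in hearts of aged female rats after loss and replacement of ovarian estradiol. Members were the probe sets annotated to exactly 1 symbol that begins with Psma, Psmb, Psmc or Psmd and a number, without the immunoproteasome genes Psmb8, Psmb9 and Psmb10. The rule found 45 probe sets of 34 genes, among 14217 genes with such a probe set on the array. The letters also caught Psmc3ip, a recombination cofactor that is no proteasome protein, which left 33 genes: 13 of the core particle, 17 of the regulatory particle and 3 assembly factors. Each gene was represented by its brightest probe set of 1 symbol, and all 33 passed the filter on dim signals described below. Psmb6, a catalytic subunit, was not analysed here because its probe set carries a further symbol. A brighter probe set of Psma3, at a mean log2 signal of 9.95 against 7.07, was left out for the same reason. For late estradiol minus ovariectomy the brighter one stood at -0.03 and the one used at 0.21.

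The rats were Norway Brown females of 18 to 22 months in 4 groups: sham surgery, ovariectomy alone, ovariectomy with a 0.5 mg pellet of 17-β estradiol placed at surgery (early estradiol), and ovariectomy with the same pellet placed 9 weeks later (late estradiol). The pellet sat under the skin of the neck and releases its content over 90 days. All groups but sham had lost the ovaries, and the sham rats were opened and closed without removal of tissue. Total RNA of 3 hearts was pooled on each single-colour array, with 2 arrays per group, and the sources used here do not say if pools shared a heart. Spread between arrays is therefore spread between pools, which averages single animals and can be technical in part. Of 10 cardiomyocyte markers, 9 had a probe set, and these lay at mean log2 signals of 11.58 (Ryr2) to 13.06 (Myh7), so the labelled tissue carried its defining genes. In RNA of a whole tissue, fewer cells of a type and less RNA per cell cannot be told apart.

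The proteasome is the large protease that degrades proteins tagged with ubiquitin. Its barrel-shaped core is a stack of rings of alpha subunits, which gate the entry, and of beta subunits, some of which carry the catalytic sites. The regulatory particle caps the barrel: its base holds a ring of ATPases that unfold the substrate, and its lid removes the ubiquitin chain. In heart muscle the system turns over sarcomere and mitochondrial proteins and clears damaged ones, and the transcription factor Nfe2l1 raises the genes of all its parts together when proteolysis is short.

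Because the genes are known to share promoter elements, the bases before the gene start are shown for 4 members that recur below: Psma1 and Psmd11, with the widest group differences, Psmb5, a catalytic subunit, and Psmb2, where matches to 2 of the motifs searched share a base. The sequences are those of RefSeq for GRCr8, written from 250 bases before the start to the last base before it. Capitals mark matches, on either strand, to TGACNNNGC (the core of the antioxidant response element that Nfe2l1 and Nfe2l2 bind), CCAAT (bound by NF-Y) or TATAAA.
Psma1 (chr1:177887858-177888107, minus strand): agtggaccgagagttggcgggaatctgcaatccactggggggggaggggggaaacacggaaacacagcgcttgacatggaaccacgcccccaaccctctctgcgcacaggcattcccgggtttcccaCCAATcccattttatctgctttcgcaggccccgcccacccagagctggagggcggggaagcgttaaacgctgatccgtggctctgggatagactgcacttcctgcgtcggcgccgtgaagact
Psmb2 (chr5:144254808-144255057, plus strand): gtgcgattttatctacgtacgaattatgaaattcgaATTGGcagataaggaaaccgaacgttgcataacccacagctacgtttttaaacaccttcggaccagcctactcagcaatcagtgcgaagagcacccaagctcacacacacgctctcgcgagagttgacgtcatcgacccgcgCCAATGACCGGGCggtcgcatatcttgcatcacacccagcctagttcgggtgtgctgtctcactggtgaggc
Psmb5 (chr15:32047380-32047629, minus strand): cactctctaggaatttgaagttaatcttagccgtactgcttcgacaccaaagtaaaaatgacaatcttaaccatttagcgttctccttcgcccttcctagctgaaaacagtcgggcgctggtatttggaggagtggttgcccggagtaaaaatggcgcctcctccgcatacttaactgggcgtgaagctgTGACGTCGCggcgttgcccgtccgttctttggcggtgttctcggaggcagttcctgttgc
Psmd11 (chr10:65932093-65932342, plus strand): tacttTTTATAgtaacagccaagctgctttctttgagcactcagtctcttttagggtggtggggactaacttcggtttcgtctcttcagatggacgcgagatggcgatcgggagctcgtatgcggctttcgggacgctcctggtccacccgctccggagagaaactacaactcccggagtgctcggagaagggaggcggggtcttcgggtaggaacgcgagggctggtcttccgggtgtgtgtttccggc

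Promoters of 29 of the 33 genes were in the RefSeq table. TGACNNNGC occurred in 5 of the 29 (17.2%), in Psma3, Psmb2, Psmb5, Psmd1 and Psmd9, against 10.1% of all 33469 promoters. In Psmb5 it began 60 bases before the start. In Psmb2 it began at 68 bases before the start, where it shares its first base with the last base of a CCAAT. The latter motif occurred in 16 of 29 (55.2%) against 34.0% of all, in 9 of 12 core and 5 of 14 regulatory promoters. TATAAA occurred in 4 of 29 (13.8%) against 12.9%. Median GC content of the window was 55.6% in the members and 51.2% in all promoters. These matches describe letters in a window and no binding was measured.

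Proteasome genes, read at their brightest probe sets, were bright and varied little. All values below are log2 signals after quantile normalization, which gives every array the same distribution, so a difference is relative to the rest of the array. The mean log2 signal of the 33 genes ran from 6.59 (Psmd9) to 11.23 (Psma6), with a median of 9.11 against 5.72 over the 18625 probe sets tested. The members were picked for brightness within a gene and the probe sets tested were not. Contrasts between them in signal, span and interval width, here and below, are therefore not like for like. Dimmer probe sets of member genes lay as low as 2.24 (Psmd11). From the lowest to the highest of the 8 arrays the median gene spanned 0.41, against 1.16 over all probe sets tested. The span was below 1, a 2-fold difference, in 32 of 33 genes and in 40.9% of the probe sets tested. Psmc1, an ATPase of the base, had the narrowest span at 0.20, with all 8 arrays between 8.73 and 8.93. Psmd13, a lid subunit, had the widest at 1.36.

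**Figure D1:**
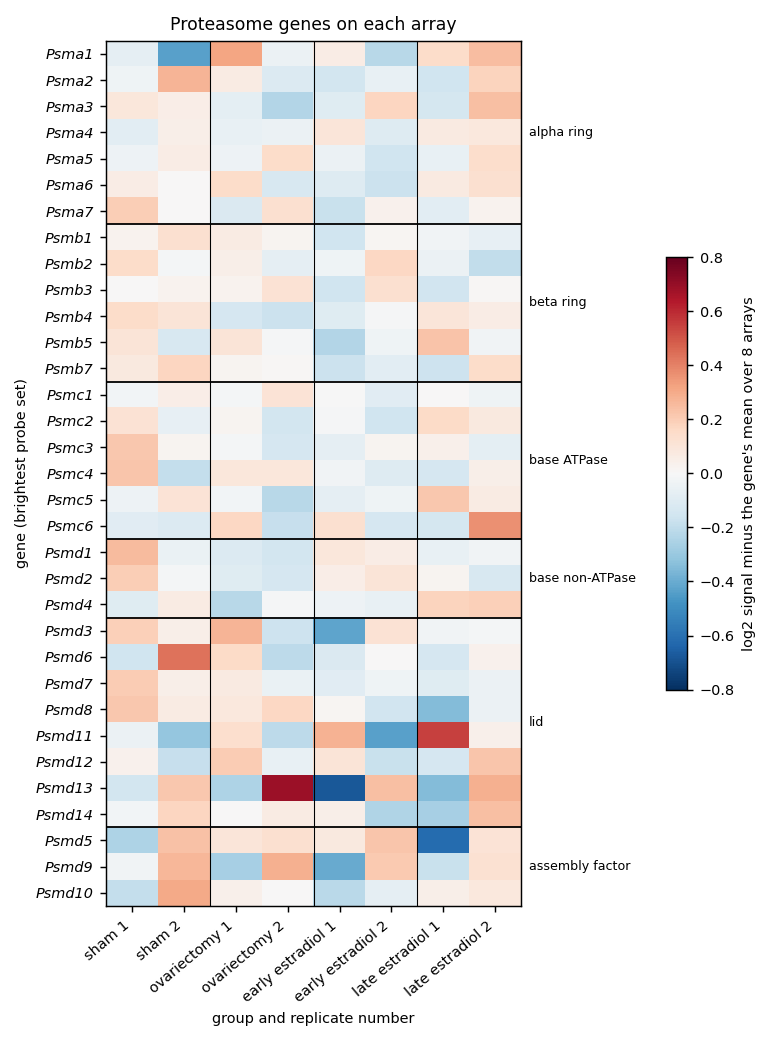
Each row is 1 of the 33 genes, grouped by its place in the particle, and each column 1 array; colour gives the log2 signal minus the mean of that gene over 8 arrays. Most cells are pale, and the strongest colours are those of Psmd13, Psmd5 and Psmd11.

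The small span goes with a high signal. The residual SD within groups had a median of 0.135 in the members and 0.395 over all probe sets tested. Of the members, 30 lay in the brightest 25% of the probe sets tested, where the median residual SD was 0.119 for them and 0.223 for all. The other 3 genes, Psmd5, Psmd9 and Psmd13, lay in the next 25%, at 0.327 against 0.323.

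**Figure D2:**
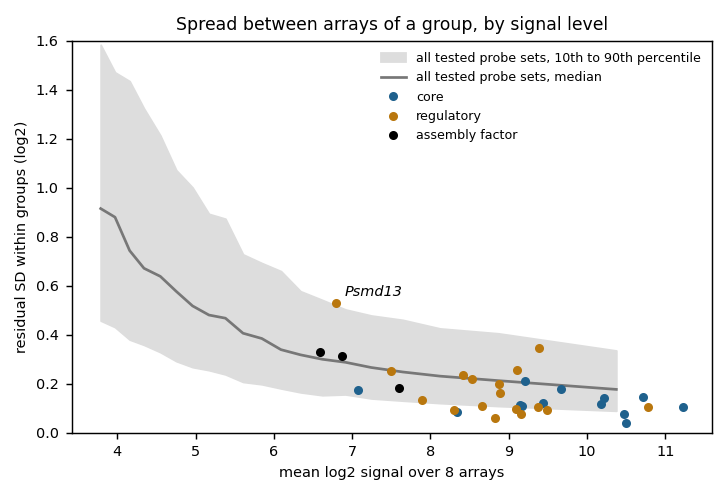
Residual SD within groups (log2) is plotted against mean log2 signal, with points for the 33 genes and a grey band and line for all tested probe sets in 20 bins of signal. Spread falls with signal, and Psmd13 at 0.53 has the highest residual SD of the members.

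The arrays themselves differed by replicate number. By the 2% trimmed mean of their deposited signals, replicate 1 arrays lay at 28.1 to 69.8 and replicate 2 arrays at 103.8 to 137. Late estradiol replicate 1 was dimmest. Without between-array normalization the median of all tested probe sets moved by -0.62 (late estradiol against sham) to 0.18 (early estradiol against ovariectomy), so differences are only read relative to the array. Among the members, replicate 2 lay above replicate 1 in all 4 groups for Psmb3, Psmd5, Psmd9 and Psmd13 (4 of 33, against 15% of all probe sets tested), and below it in all 4 for Psmc2 and Psmd11 (2 of 33, against 13.3%). Psmd13 was higher in replicate 2 by 0.36 in sham, 0.93 after ovariectomy, 0.92 under early and 0.63 under late estradiol. For Psmd11, a lid subunit that scaffolds the particle, replicate 2 minus replicate 1 was -0.26, -0.34, -0.71 and -0.50 in the same order.

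Across the 4 groups together, no proteasome gene passed the test. In limma's moderated F test, 0 of 33 genes passed at a Benjamini-Hochberg adjusted p under 0.05, as did 0% of all probe sets tested, and 0 of 33 had an unadjusted p under 0.05, against 1.86% of all. With the replicate number as a block, the counts were again 0 and 0 of 33, against 0% and 4.62%. In the 6 pairwise comparisons the block left 0 of 33 genes past the adjusted threshold, against 0% of all probe sets tested but for 0.00537% in late estradiol against ovariectomy. Its counts at an unadjusted p under 0.05 were 1 for ovariectomy against sham (Psma1; 3.08% of all), 1 for late against early estradiol (Psmd11; 7.79%), 2 for late estradiol against sham (Psma1 and Psmd11; 7.18%) and 0 for the other 3 (3.68% for early and 8.03% for late estradiol against ovariectomy, 1.63% for early estradiol against sham). The smallest F test p of each class belonged to Psma1, Psmb4, Psmc5, Psmd8 and Psmd5, all with an adjusted p of 0.9997 in limma. Psmc3ip, caught by its letters alone, did not pass either, with 8 values between 5.93 and 6.75.

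In gene-centred values, the core and the regulatory particle lay close together on each array. To compare them, each gene was centred on its mean over the 8 arrays, and the centred values were averaged over the 13 core genes (rings without Psmb6) and over the 17 regulatory genes (base and lid, without the 3 assembly factors). The core mean was 0.05 and 0.02 on the sham arrays, 0.03 and -0.03 after ovariectomy, -0.10 and -0.03 under early estradiol and -0.02 and 0.07 under late estradiol, replicate 1 first. The regulatory mean on the same arrays was 0.06 and 0.02, 0.03 and -0.03, -0.05 and -0.06, and -0.03 and 0.07. Both early estradiol arrays lay below both sham arrays in either particle, whereas ovariectomy and late estradiol overlapped sham.

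The difference of core minus regulatory stayed within 0.05 of 0 on every array. It was -0.005 ± 0.012 in sham, 0.0012 ± 0.0010 after ovariectomy, -0.006 ± 0.062 under early estradiol and 0.009 ± 0.007 under late estradiol (SD, n = 2 arrays). Its group differences ran from -0.007 (early estradiol minus ovariectomy) to 0.015 (late minus early estradiol), below the SD of 0.032 between arrays of a group. In early estradiol the replicates stood on either side of 0, at -0.049 and 0.038, and each of the other 3 groups spanned less than 0.02. Scores over the members are descriptions and carry no test. Centring sets the mean of each score over the arrays to 0 by construction. Pairs of gene groups outside the family were not scored for reference. With the mean of all probe sets of a gene in place of the brightest, the difference for ovariectomy minus sham was -0.13, a setting that takes in dim probe sets of Psmb5, Psmc4 and Psmd11 at mean log2 signals of 2.24 to 3.41.

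**Figure D3:**
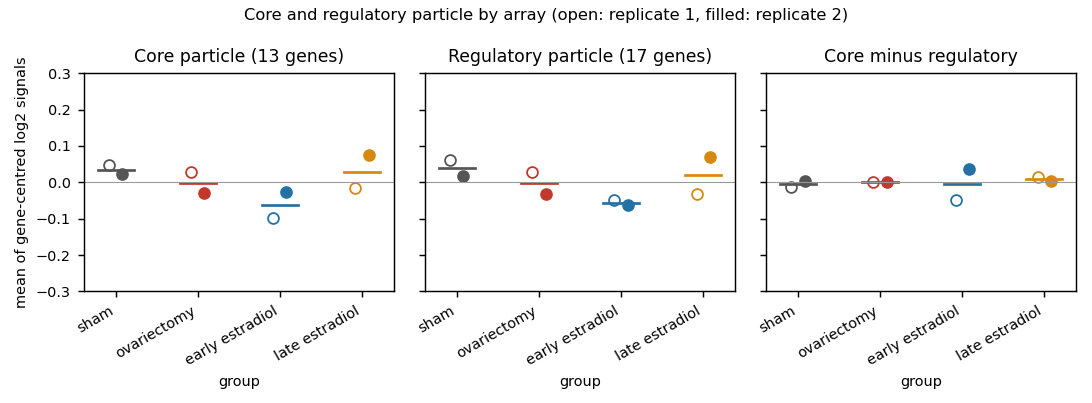
Points give the mean gene-centred log2 signal of the core particle, of the regulatory particle, and their difference, on each array (open: replicate 1, filled: replicate 2, line: group mean). Core and regulatory points shift together, and their difference lies between -0.049 and 0.038.

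Within the particles, alpha minus beta ring was -0.057 ± 0.013 in sham, -0.007 ± 0.024 after ovariectomy, -0.011 ± 0.130 under early and 0.074 ± 0.125 under late estradiol (SD, n = 2). Base ATPases minus lid was -0.03 ± 0.09, -0.08 ± 0.04, 0.05 ± 0.07 and 0.05 ± 0.10 in the same order. Replicate 1 lay above replicate 2 in all 4 groups, so these SDs hold that shift. Within replicate numbers 1 and 2, base ATPases minus lid differed from ovariectomy by 0.14 and 0.11 under early and by 0.17 and 0.09 under late estradiol. From sham it differed by 0.06 and 0.09 under early and by 0.09 and 0.08 under late estradiol. Late estradiol replicate 2 had the highest alpha minus beta value, at 0.16, while its replicate 1 stood at -0.01.

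Ovariectomy against sham asked how loss of the ovaries bears on these genes. In limma 0 of 33 genes passed (0% of all probe sets tested), and 0 had an unadjusted p under 0.05, against 1.47% of all. The median difference was -0.04, against -0.03 over all probe sets tested, with 11 genes higher and 22 lower (46.7% and 53.3% of all). The 95% interval lay inside 2-fold in both directions for 32 of 33 genes, against 37.4% of all probe sets tested, the exception being Psmd13. These intervals rest on quantile normalization: with median scaling alone, 0 of 33 genes had such an interval in any of the 6 comparisons.

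Psmb4, a structural subunit of the beta ring, read 10.64 and 10.60 on the sham arrays, 10.36 and 10.32 after ovariectomy, 10.40 and 10.49 under early and 10.60 and 10.56 under late estradiol. Both arrays of each other group lay below both sham arrays, by the widest gap after ovariectomy and by a gap under the rounding of these values for late estradiol. The ovariectomy difference was -0.28 ± 0.14 (limma's moderated SE) and did not pass (adjusted p = 1). It was the tightest member within groups, with a residual SD of 0.039. Psma1, an alpha ring subunit, lay the other way. Its values were 9.14 and 8.77 in sham, 9.52 and 9.16 after ovariectomy, 9.27 and 8.98 under early and 9.35 and 9.45 under late estradiol. The ovariectomy difference of 0.38 ± 0.21 did not pass in limma (adjusted p = 1) and was 0.20 without sham replicate 2 and 0.21 without ovariectomy replicate 1. Psma1 was the 1 gene with both ovariectomy arrays above both sham arrays (1 of 33, against 11% of all). Those with both below were Psma3, Psmb4, Psmb7, Psmc3, Psmd1 and Psmd2 (6 of 33, against 14.1%).

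Psmd2 and Psmd1 are the large scaffold proteins of the base. Psmd2 read 9.68 and 9.47 in sham, 9.38 and 9.35 after ovariectomy, 9.53 and 9.59 under early and 9.50 and 9.35 under late estradiol. Psmd1 read 8.91 and 8.60, 8.54 and 8.51, 8.74 and 8.71, and 8.59 and 8.63. In both genes the ovariectomy arrays lay below the sham and the early estradiol arrays without overlap. The ovariectomy differences were -0.21 ± 0.16 and -0.23 ± 0.18, and neither passed in limma (adjusted p = 1). Without sham replicate 1 the difference of Psmd2 was -0.11.

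Early estradiol against ovariectomy asked what replacement from the day of surgery does. In limma 0 of 33 genes passed (0% of all probe sets tested) and 0 had an unadjusted p under 0.05, against 1.71% of all. The median difference was -0.08, against 0.02 over all probe sets tested, with 11 genes higher and 22 lower (52.9% and 47.1% of all). The interval lay inside 2-fold for 32 of 33 genes, against 37% of all, again with Psmd13 outside. All 8 lid genes had a lower mean, from -0.02 (Psmd6) to -0.44 (Psmd13), and none of them passed. Within replicate 1, 2 of these 8 were higher, and within replicate 2, 3 of them. The direction also depended on the probe set. Dimmer tested probe sets of lid genes stood at 0.23 (Psmd11), 0.009 (Psmd7), and -0.18 and 0.19 (Psmd14). All 3 base genes that are no ATPases (Psmd1, Psmd2 and Psmd4) had a higher mean.

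Psmb5, the catalytic subunit with chymotrypsin-like activity and the target of bortezomib, read 10.81 and 10.58 in sham, 10.82 and 10.70 after ovariectomy, 10.48 and 10.68 under early and 10.94 and 10.69 under late estradiol. The difference of early estradiol minus ovariectomy was -0.18 ± 0.16 without passing (limma adjusted p = 0.9998), and it was -0.08 without early estradiol replicate 1. Psmb7, the catalytic subunit with trypsin-like activity, read 10.26 and 10.35, 10.20 and 10.19, 10.01 and 10.09, and 10.02 and 10.32 in the same group order. The 2 late estradiol arrays of Psmb7 spanned all of the other arrays but sham replicate 2 and early estradiol replicate 1. Psmd2 and Psmd1 stood at 0.19 ± 0.16 and 0.20 ± 0.18 for early estradiol minus ovariectomy, without passing (limma adjusted p = 0.9998 each). With Psmb4, they were the 3 genes with both early estradiol arrays above both ovariectomy arrays (3 of 33, against 14.7% of all). Another 7 genes had both below (against 12.3%): Psma5, Psmb1, Psmb5, Psmb7, Psmc4, Psmd8 and Psmd10.

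Late estradiol against ovariectomy asked what the same pellet does after 9 weeks without the hormone. In limma 0 of 33 genes passed (0% of all probe sets tested) and 0 had an unadjusted p under 0.05, against 4.36% of all. The median difference was -0.01, against 0.01 over all probe sets tested, with 16 genes higher and 17 lower (51.2% and 48.8%). The interval lay inside 2-fold for 31 of 33 genes, against 33.3% of all, with Psmd5 and Psmd13 outside. Replicate 1 gave a median of -0.08 and replicate 2 one of 0.12, and the joint value was 0.08 without late estradiol replicate 1 and 0.10 without ovariectomy replicate 1.

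Genes of smallest p were Psmb4 at 0.23 ± 0.14, Psmd4 at 0.30 ± 0.19 and Psmc5 at 0.26 ± 0.17, and none passed (limma adjusted p = 0.943 each). Psmd4, a ubiquitin receptor of the base, read 8.20 and 8.36 in sham, 8.07 and 8.28 after ovariectomy, 8.25 and 8.23 under early and 8.47 and 8.48 under late estradiol, where both late arrays were the highest of the 8. Psmc5, an ATPase of the base, read 9.33 and 9.48, 9.35 and 9.15, 9.30 and 9.34, and 9.59 and 9.44, where late estradiol overlapped sham. Without ovariectomy replicate 1, the difference of Psmd4 was 0.19. That of Psmc5 was 0.17 without ovariectomy replicate 2. Both late arrays lay above both ovariectomy arrays in 7 of 33 genes (15.7% of all): Psma4, Psmb4, Psmc2, Psmc5, Psmd1, Psmd4 and Psmd10. They lay below in 4 of 33 (13.4%): Psmb1, Psmb3, Psmc4 and Psmd8.

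**Figure D4:**
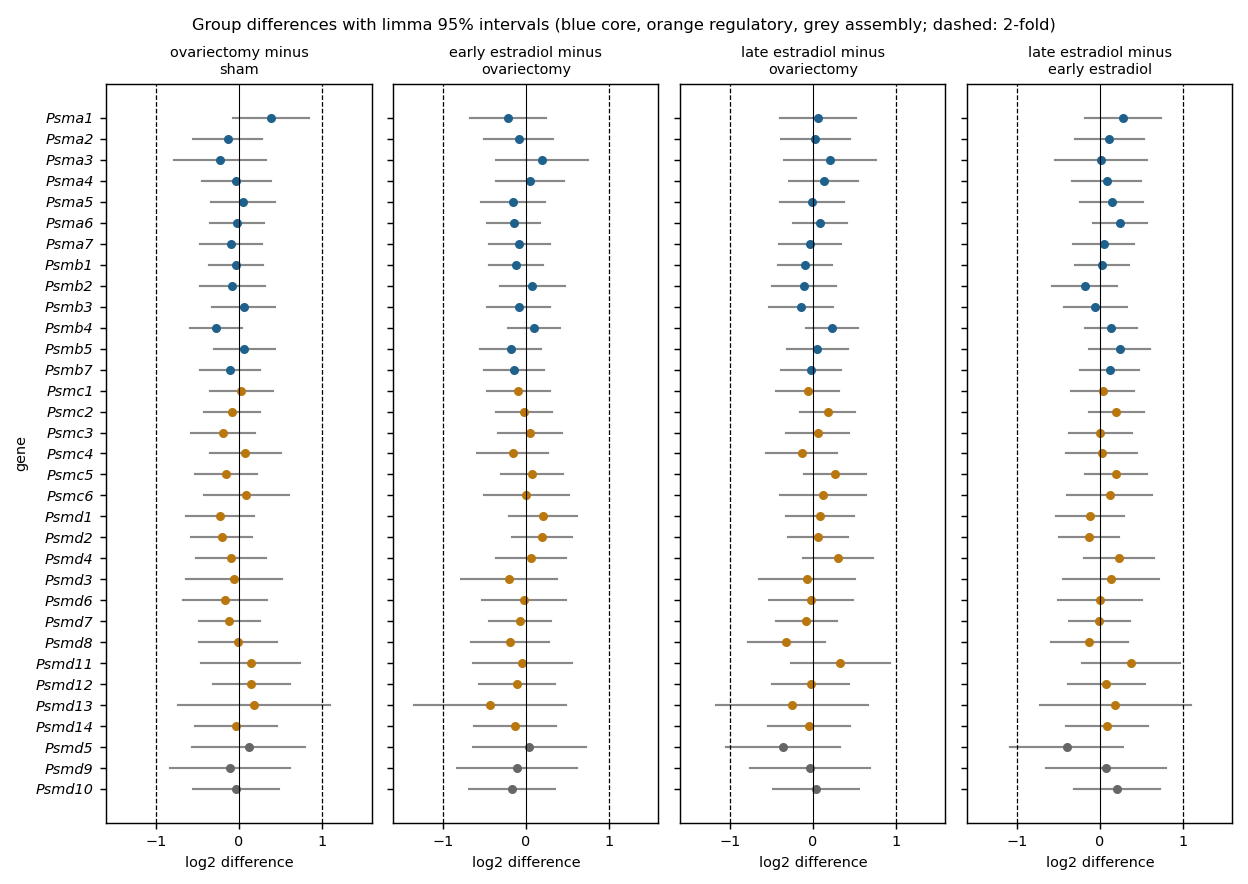
Each row is a gene, with its log2 difference of group means and limma's 95% interval in 4 comparisons (blue core, orange regulatory, grey assembly factor; dashed lines at 2-fold). All intervals include 0, and those of Psmd13 and Psmd5 cross a dashed line.

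Late against early estradiol compared the 2 starts of treatment. A later start also changes the time under the pellet or the time since surgery, and these cannot be told apart from the start itself. More genes were higher than lower with the late start, 26 against 7 (49.3% and 50.7% of all probe sets tested), but the differences were small, with a median of 0.08 against -0.01 over all. All 7 alpha ring genes and all 6 base ATPases had the higher mean with the late start, from 0.007 (Psmc3) to 0.28 (Psma1). Within replicate 1, 3 of these 7 and 4 of these 6 were higher, and within replicate 2, 6 and 5. For Psma3 the probe set used stood at 0.014. Its brighter probe set, left out for a further symbol, stood at -0.096. In the other classes 4 of 6 beta ring genes, 6 of 8 lid genes, 2 of 3 assembly factors and 1 of 3 other base genes had the higher mean. Over the 33 genes, replicate 1 gave a median of 0.007 and replicate 2 one of 0.07, and the median was -0.03 without late estradiol replicate 2. With median scaling it was -0.27, where all probe sets tested stood at -0.25. In limma 0 of 33 genes passed (0% of all probe sets tested), 0 had an unadjusted p under 0.05 (3.87% of all), and the interval lay inside 2-fold for 31 of 33 (34% of all), again without Psmd5 and Psmd13.

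Psma6, an alpha ring subunit and the brightest probe set of the family, read 11.29 and 11.23 in sham, 11.38 and 11.10 after ovariectomy, 11.12 and 11.06 under early and 11.30 and 11.36 under late estradiol. The late arrays lay above the early arrays by 0.24 ± 0.15, without passing (limma adjusted p = 0.987). Psmb5 stood at 0.24 ± 0.16 and Psmd11 at 0.38 ± 0.27, with the same adjusted p in limma. Psmb5 was at 0.11 without late estradiol replicate 1. Psmd11 was at 0.02 without early estradiol replicate 2, at 0.13 without late estradiol replicate 1 and at 0.73 without early estradiol replicate 1. Its dimmer tested probe set stood at -0.098 for late minus early estradiol. Both late arrays lay above both early arrays in 8 of 33 genes (15.5% of all) and below in 3 of 33 (16.3%), the latter being Psmb2, Psmd1 and Psmd2.

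Against sham, early estradiol had 6 genes higher and 27 lower (49.9% and 50.1% of all probe sets tested), with a median of -0.11 against -0.001 over all. Replicate 1 gave a median of -0.16 and replicate 2 one of -0.09. In limma 0 of 33 passed (0% of all), 0 had an unadjusted p under 0.05 (0.773% of all), and the interval lay inside 2-fold for 32 of 33 (39.2% of all). Both early arrays lay below both sham arrays in 9 of 33 genes (12.7% of all) and above in 0 (12.1%). Psmb7, Psmb4 and Psma2 had the smallest p, at -0.25 ± 0.16, -0.18 ± 0.14 and -0.22 ± 0.19, and none passed (limma adjusted p = 0.9999 each). Psma2, an alpha ring subunit, read 9.64 and 9.94 in sham and 9.52 and 9.61 under early estradiol, and its difference was -0.07 without sham replicate 2. Early estradiol and late estradiol were compared with the same ovariectomy and sham arrays, so these comparisons are not independent of each other.

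Late estradiol against sham held the largest single differences. Psma1 stood at 0.45 ± 0.21, or 1.36-fold, with both late arrays above both sham arrays, and did not pass (limma adjusted p = 0.997). Its 95% interval ran from -0.01 to 0.91, and the difference was 0.26 without sham replicate 2. Psmd11 read 9.34 and 9.08 in sham, 9.52 and 9.18 after ovariectomy, 9.66 and 8.95 under early and 9.93 and 9.43 under late estradiol. It stood at 0.47 ± 0.27 without passing (limma adjusted p = 0.997), and at 0.22 without late estradiol replicate 1, the dimmest array. The dimmer tested probe set of Psmd11, at a mean log2 signal of 7.82, stood at -0.17. Psmd8, a lid subunit, read 8.11 and 7.96, 7.98 and 8.06, 7.91 and 7.74, and 7.55 and 7.85, and the difference of late estradiol minus sham was -0.33 ± 0.21 without passing (limma adjusted p = 0.997). Without late estradiol replicate 1 it stood at -0.19.

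Over the family, 12 genes were higher and 21 lower under late estradiol than in sham (48.1% and 51.9% of all probe sets tested), with a median of -0.07 against -0.02. In limma 0 of 33 passed (0% of all) and 0 had an unadjusted p under 0.05 (3.37% of all). The interval lay inside 2-fold for 32 of 33 (34.5% of all), the exception being Psmd11. The median was 0.03 without late estradiol replicate 1. Both late arrays lay above both sham arrays in 5 of 33 genes (14.5% of all), Psma1, Psma4, Psma6, Psmd4 and Psmd11. They lay below in 6 of 33 (16.1%), Psmb1, Psmb2, Psmb4, Psmd3, Psmd7 and Psmd8.

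**Figure D5:**
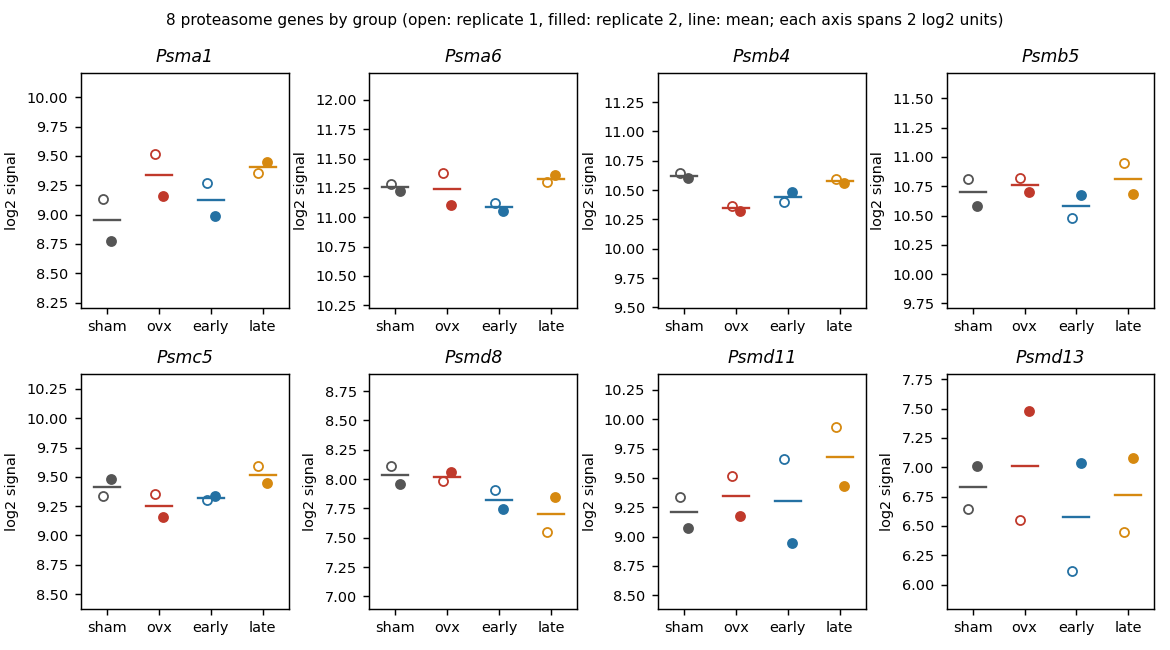
Log2 signals of 8 genes on each array (open: replicate 1, filled: replicate 2, line: group mean; each axis spans 2 log2 units). Groups differ by less than 0.5 in every panel, and in Psmd11 and Psmd13 the replicates of a group stand apart in the same direction in all 4 groups.

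Psmc1, the narrowest of the base ATPases, stood between -0.09 and 0.03 in all 6 comparisons. Psmc2, another ATPase, read 10.90 and 10.71 in sham, 10.80 and 10.63 after ovariectomy, 10.77 and 10.62 under early and 10.93 and 10.86 under late estradiol, with replicate 1 the higher array in each group. Psmc6 has 3 tested probe sets, which stood at 0.12, 0.29 and 0.51 for late estradiol minus ovariectomy in order of falling brightness, with mean log2 signals of 8.42, 7.47 and 5.52. For Psmd14, the deubiquitinase of the lid, the 3 tested probe sets stood at -0.05, -0.32 and -0.03 in that comparison, at 8.53, 7.38 and 5.02.

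The assembly factors Psmd5, Psmd9 and Psmd10 bind the base while it is built and leave the finished particle. Psmd5 read 6.62 and 7.10 in sham, 6.96 and 6.99 after ovariectomy, 6.95 and 7.09 under early and 6.25 and 6.98 under late estradiol, where late estradiol replicate 1 was the lowest array. Psmd10, also known as the oncoprotein gankyrin, read 7.40 and 7.90, 7.63 and 7.60, 7.38 and 7.52, and 7.64 and 7.68. Psmd9 lay between 6.19 and 6.88. A dimmer probe set of Psmd9 stood at 1.07 for late estradiol minus ovariectomy, where the brighter probe set stood at -0.03.

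Other genes of the pathway, from lists of 57 symbols, showed no call either. Of these, 47 had a probe set of 1 symbol and 46 were tested. In limma 0 passed in any comparison or in the F test, and 0 had an unadjusted F test p under 0.05, against 1.86% of all probe sets tested. At an unadjusted p under 0.05 the pairwise counts were 1 for ovariectomy against sham (Zfand5), 1 for early estradiol against ovariectomy (Ubqln2), 2 for late estradiol against ovariectomy (Adrm1 and Nploc4), 3 for late against early estradiol (Txnl1, Nploc4 and Mdm2), 2 for late estradiol against sham (Txnl1 and Nploc4) and 0 for early estradiol against sham. The shares of all probe sets at that p are those given above for each comparison. The immunoproteasome genes Psmb8, Psmb9 and Psmb10 replace catalytic beta subunits in immune cells and after interferon. In 3 of 3 the mean was lower under early estradiol than after ovariectomy (47.1% of all probe sets tested), at -0.31, -0.05 and -0.42. In 3 of 3 it was higher under late estradiol than after ovariectomy, under early estradiol and in sham (51.2%, 49.3% and 48.1% of all). Against ovariectomy this was by little, with Psmb8, Psmb9 and Psmb10 at 0.10, 0.18 and 0.002. Ovariectomy replicate 2 was their highest array, at 7.40, 7.56 and 7.18, and ovariectomy replicate 1 stood at 7.08, 6.75 and 6.74. The 8 macrophage markers were all tested and none was at 0. Their mean centred signal was -0.35 and -0.22 in sham, -0.43 and 1.39 after ovariectomy, 0.54 and 0.17 under early and -0.97 and -0.14 under late estradiol, so ovariectomy replicate 2 was highest there as well. By mean centred signal, the 2 lists lay on opposite sides of 0 on the estradiol arrays. That of the immunoproteasome genes was -0.19 and -0.20 under early and 0.15 and 0.16 under late estradiol. Against ovariectomy, the macrophage markers were split under early estradiol, with 5 higher and 3 lower (52.9% and 47.1% of all) and a median of 0.04. Under late estradiol 1 was higher and 7 lower than after ovariectomy (51.2% and 48.8% of all). The part of the macrophage markers in the immunoproteasome values was not tested. The constitutive counterparts Psmb5 and Psmb7 did not have their highest value on ovariectomy replicate 2.

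Among proteins bound to the regulatory particle, all 7 listed genes had a probe set (Sem1 is also listed by its former symbol, Shfm1). Txnl1, a thioredoxin-like protein of the particle, read 9.24 and 9.91 in sham, 9.57 and 9.76 after ovariectomy, 9.74 and 9.49 under early and 10.06 and 10.27 under late estradiol. Both late arrays were the highest of the 8, and the difference from sham was 0.58 ± 0.23 without passing (limma adjusted p = 0.997). Adrm1, a ubiquitin receptor of the base, stood at -0.90 ± 0.39 for late estradiol minus ovariectomy (limma adjusted p = 0.943), and its sham arrays alone ran from 6.07 to 7.04. Zfand5, which activates the proteasome in wasting muscle, stood at -0.50 ± 0.22 for ovariectomy minus sham, and Uchl5, a deubiquitinase of the base, at -0.25. Neither passed in limma (adjusted p = 1). Of the 7, 6 had a higher mean under late estradiol than after ovariectomy and 1 a lower one (51.2% and 48.8% of all probe sets tested). Against sham, 4 were higher and 3 lower under late estradiol. For early estradiol minus ovariectomy 2 were higher and 5 lower.

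Of the shuttle proteins and the segregase Vcp, which deliver substrates, 9 genes were tested. With late estradiol 1 of them had a higher and 8 a lower mean than in sham (48.1% and 51.9% of all probe sets tested). Against ovariectomy, 4 were higher and 5 lower with late estradiol, and 5 higher and 4 lower with early estradiol. Vcp stood between -0.07 and 0.01 in all 6 comparisons. Its cofactor Nploc4 read 7.99 and 7.62, 7.92 and 8.04, 7.73 and 7.86, and 7.04 and 7.44, lower on both late estradiol arrays than on the other 6. It stood at -0.74 ± 0.24 for late estradiol minus ovariectomy without passing (limma adjusted p = 0.943). Ubqln2, a ubiquitin-binding shuttle, stood at 0.45 ± 0.19 for early estradiol minus ovariectomy, also without passing (limma adjusted p = 0.9998).

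Of the activators and the inhibitor, 4 of 5 were tested, led by Psme2, a subunit of the interferon-induced cap, at -0.34 for early estradiol minus ovariectomy, and Psmf1, the inhibitor, at 0.25. All 5 core assembly chaperones were tested. Pomp, which matures the beta ring, read 11.23 and 11.21, 11.09 and 11.07, 10.90 and 11.26, and 11.45 and 11.31, and Psmg2 stood at -0.49 for late estradiol minus ovariectomy. All 7 listed regulators were tested: Nfe2l1 read 7.27 and 7.21, 7.21 and 6.86, 7.63 and 7.28, and 7.25 and 6.70, and Nfyb, a subunit of NF-Y, stood at 0.51 for late estradiol minus ovariectomy. The E1 enzymes Uba1 and Uba6 were the tested genes of the ubiquitin list and differed by at most 0.15 from group to group. Of the ubiquitin ligases, Mdm2 was at 0.49 ± 0.22 for late minus early estradiol, Trim54 at 0.34 for late estradiol minus ovariectomy, and Trim63, the muscle ligase MuRF1, between -0.19 and 0.28. Fbxo32, the muscle ligase atrogin-1, had a mean log2 signal of 3.39, below the filter, and was not tested. The direction counts of the 10 ligases with a probe set include the untested Fbxo32. For early estradiol minus ovariectomy 8 were higher (52.9% of all probe sets tested) and 2 lower (47.1%), Mdm2 at -0.27 and Stub1 at -0.02. Against sham, 5 were higher and 5 lower under early estradiol, and 4 were higher and 6 lower after ovariectomy. None of these ligases passed in limma.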

How the data were processed

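Total RNA of rat hearts was measured on 8 arrays, 2 per group. The values the authors deposited are linear intensity, 1 per probe set; the submitters' processing notes name MAS5, and its version and scaling were not given in the sources used here. Of 31099 probe sets, controls were dropped, leaving 31042. Log2 values were quantile normalized, and the 18625 at or above the 40th percentile of mean log2 signal (3.69) entered limma 3.58.1 under R 4.3.3 (group means over all 8 arrays, intensity trend, two-sided, Benjamini-Hochberg within each comparison, threshold 0.05). Intervals are limma's moderated 95% intervals, not adjusted over genes. The number of arrays limits the precision. Simulated arrays tested the script.

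Names came from the platform annotation; all 34 genes caught matched RefSeq GRCr8 by Entrez number. Members and lists were chosen with earlier results of these data known. The text names the catalytic subunits, the 3 members of smallest p per comparison, the 2 of smallest F test p per class, and up to 4 per pathway list; Psmc1, Psmd9, Psmd13, Psmd14, Psmc6, Vcp and Trim63 were added after their values were seen. Alternatives are in the closing section.

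Groups share replicate numbers 1 and 2. Replicate 2 minus replicate 1 differences correlated across probe sets between groups at r = 0.277 to 0.331 in 6 of 6 pairs of groups; probe sets are not independent replicates. The number was therefore also fitted as a block.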

Additional observations from a re-analysis of the deposited data

How the results depend on the processing

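No gene of the 33 passed limma's adjusted threshold under any of the alternatives run, the replicate block included: with the replicate number as a block, 0 were called in every comparison and in the F test, and the group differences are the same by construction because each group holds both numbers. Medians of the 33 genes followed the scaling of the arrays. Without between-array normalization they were -0.41 (ovariectomy minus sham), 0.13 (early estradiol minus ovariectomy), -0.36 (late estradiol minus ovariectomy), -0.49 (late minus early estradiol), -0.27 (early estradiol minus sham) and -0.79 (late estradiol minus sham), where all tested probe sets stood at -0.31, 0.18, -0.31, -0.48, -0.14 and -0.62. With median scaling the first 4 were -0.27, 0.15, -0.12 and -0.27, and late estradiol minus sham was -0.40. Under either setting 0 of 33 genes had a 95% interval inside 2-fold, a count added after seeing the data. Without the 2 dimmest arrays the medians were -0.011 for early and 0.12 for late estradiol minus ovariectomy and 0.027 for late estradiol minus sham. With each array left out in turn they ran from -0.052 to -0.018, -0.10 to -0.010, -0.068 to 0.10, -0.031 to 0.12, -0.13 to -0.071 and -0.10 to 0.027, in the order of comparisons above.

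Core minus regulatory, from the mean of all probe sets of a gene, was -0.13, 0.047, 0.088, -0.082 and -0.041 for ovariectomy minus sham, early and late estradiol minus ovariectomy, and early and late estradiol minus sham. With each array left out it ran from -0.053 to 0.036 (early estradiol minus ovariectomy), -0.028 to 0.060 (late minus early) and -0.047 to 0.043 (early estradiol minus sham). For a named gene, the replicate block, dropping the filter and dropping the intensity trend cannot change a difference of group means. The mean of all probe sets cannot change it for genes with a single probe set. Leaving out an array of an uninvolved group acts only through normalization. Signs kept in such cases hold by construction or nearly so, and the count of kept signs includes them. Of the differences of named genes under alternatives, 275 kept their sign and 13 turned. Without normalization these were Psma1 at -0.0036 (ovariectomy minus sham) and -0.33 (late estradiol minus sham), Psmd11 at -0.29 (late estradiol minus sham), Psmb4 at -0.10, Psmd4 at -0.079 and Psmc5 at -0.12 (late estradiol minus ovariectomy), and Psma6 at -0.22, Psmb5 at -0.31 and Psmd11 at -0.23 (late minus early). With median scaling, late minus early was -0.088 for Psmb5 and -0.0061 for Psmd11. With the mean of all probe sets, Psmb5 was at 0.14 (early estradiol minus ovariectomy) and Psmd11 at -0.10 (late minus early). The cause was not tested.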
